A study of Mus musculus with 6 samples.

Results

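The tripartite motif (TRIM) family was followed in RAW264.7 cells, a mouse macrophage line of tumour origin, at rest (M0) and after M1 polarization. Members were selected by gene symbol, as every row of the deposited TPM table named Trim followed by a number, which gave 68 of 25124 genes (67 protein-coding and 1 pseudogene). All cells of both groups belonged to a control line that had received a Cas9 plasmid without a guide RNA, made as the counterpart of E4BP4 knockout cells, and all were kept in medium with 25 mM glucose. The 3 M1 samples had been given lipopolysaccharide (LPS) at 100 ng/ml and interferon-γ at 50 ng/ml, and the 3 M0 samples neither. The length of treatment, and whether the control line is a single clone, are not stated in the labels. As no label says that the replicates were separate cultures, the spread behind each p-value may be only technical.

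TRIM proteins are named for a RING domain, 1 or more B-boxes and a coiled coil, followed by a C-terminal domain that differs between subfamilies. The RING makes most of them E3 ubiquitin ligases, which bring an E2 enzyme carrying ubiquitin to a chosen target. In macrophages the family is known for binding viral particles and for tuning the signals of RIG-I-like, STING and Toll-like receptors, in either direction, and a number of its genes are known interferon targets.

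Between 15615639 and 20283180 reads per library lay in genes. As a check of the treatment, Nos2, the inducible nitric oxide synthase of M1 macrophages, rose from 0.161 ± 0.0417 to 563 ± 51.7 TPM (the deposited level, scaled by transcript length and library total; mean ± SD, n = 3 here and throughout). All 10 macrophage markers were detected, and their summed level was 3010 to 3237 TPM in M0 and 2783 to 2824 TPM in M1. Adgre1, which encodes F4/80, stood at 2.73 ± 0.505 TPM in M0, against 67.6 ± 1.13 TPM in M1. The summed markers of T cells, B cells, neutrophils, fibroblasts and epithelium stayed at or below 1.52 TPM in every library, and Cd3g, Cd8a, Mpo, Pdgfrb, Krt8 and Krt18 were at 0 in all 6.

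The regulatory sequence of the members is shown first, because the members' directions are set beside it further on. The core of the interferon-stimulated response element, the DNA element bound by IRF proteins and the ISGF3 complex, was searched on both strands as a pair of GAAA repeats with any 2 bases between them. The windows were those of RefSeq (GRCm38.p6, the chromosome coordinates of mm10), from 250 bases before to 50 bases after each gene's start. Of the 68 members, 52 had a window, and 51 of these windows were set around the start given in the deposited table. The 16 members without a window were Trim3, Trim8, Trim11, Trim14, Trim16, Trim17, Trim29, Trim30e-ps1, Trim33, Trim35, Trim36, Trim43b, Trim43c, Trim50, Trim55 and Trim65. For 40 of the 52 windows, the bases just past the start lay near the beginning of a GENCODE transcript of the gene. Those of Trim5 and Trim12a did not. The core was found in 8 members (15.4% of 52), beside 3.44% of all 32851 windows. These 8 stretches of 30 bases are printed 5′ to 3′ on the gene's strand, with the core in capitals, so that they can be compared.
Trim30a (chr7:104465210-104465239, minus strand): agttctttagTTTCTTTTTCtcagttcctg
Trim30d (chr7:104507871-104507900, minus strand): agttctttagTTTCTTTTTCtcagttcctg
Trim5 (chr7:104288136-104288165, minus strand): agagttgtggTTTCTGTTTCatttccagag
Trim12a (chr7:104315466-104315495, minus strand): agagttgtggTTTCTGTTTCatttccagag
Trim12c (chr7:104353359-104353388, minus strand): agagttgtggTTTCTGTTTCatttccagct
Trim34a (chr7:104244457-104244486, plus strand): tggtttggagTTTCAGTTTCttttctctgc
Trim21 (chr7:102565447-102565476, minus strand): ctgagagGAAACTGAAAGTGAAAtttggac
Trim26 (chr17:36836979-36837008, plus strand): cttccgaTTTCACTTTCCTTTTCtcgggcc
The stretches of Trim30a and Trim30d were identical, as were those of Trim5 and Trim12a, and that of Trim12c differed from the latter at 2 of 30 bases. These genes are copies of one another, so their matches do not count as separate events. Trim21 and Trim26 each held 2 overlapping cores. Counted from the start of the RefSeq window's gene as 1, the core lay at -36 to -27 in Trim30a and at -41 to -32 in Trim30d. It lay at -29 to -20 in Trim12c and at -49 to -40 in Trim5. In Trim26 it lay farther out, at -160 to -145, whereas in Trim12a and Trim34a (both 11 to 20) and in Trim21 (14 to 29) it lay just past that start.

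Trim30a and Trim30d had the largest fitted increases of the family, and the 250 bases before their starts are given whole, again with the core in capitals. The first spans chr7:104465194-104465443 and the second chr7:104507850-104508099, both on the minus strand.
Trim30a: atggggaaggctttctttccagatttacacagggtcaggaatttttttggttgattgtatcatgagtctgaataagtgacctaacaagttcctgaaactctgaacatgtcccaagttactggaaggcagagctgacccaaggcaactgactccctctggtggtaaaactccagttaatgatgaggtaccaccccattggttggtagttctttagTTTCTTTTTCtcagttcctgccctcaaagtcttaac
Trim30d: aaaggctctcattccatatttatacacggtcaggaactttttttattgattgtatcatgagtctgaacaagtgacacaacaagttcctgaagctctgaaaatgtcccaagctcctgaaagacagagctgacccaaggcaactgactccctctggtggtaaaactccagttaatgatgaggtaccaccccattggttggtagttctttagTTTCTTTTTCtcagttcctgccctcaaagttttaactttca
In a global alignment 227 of 245 aligned bases (92.7%) were the same. The gamma-activated site, a DNA element of interferon-γ signalling, was searched as TTCNNNGAA, which reads alike on both strands. It was found in 5 of the 52 windows (9.62%), beside 8.30% of all windows. Its 5 holders were Trim15, Trim31, Trim38, Trim45 and Trim46. A match describes letters only and does not show that a factor binds there.

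Of the 68 members, 38 reached 1 TPM in at least 3 samples and were tested. Among these, 14 were higher in M1 (36.8%) and 21 were lower (55.3%), while 3 were not called (limma on log2(TPM + 1), with p adjusted over all genes tested and called under 0.05). Over all 11297 tested genes the share higher was 18.7% and the share lower 61.5%. The members' share of falling genes is thus near that of the whole table. The median log2 change of all tested genes was -0.31, and that of the tested members -0.34. After the values were divided by median-of-ratios factors, which raised that median by 0.33 to 0.02, 15 members were higher (39.5%) and 13 lower (34.2%), beside 38.1% and 35.4% of all genes. On the rescaled values the family as a whole therefore moved up or down about as often as other genes. In bulk RNA, fewer cells that express a gene and less RNA per cell cannot be told apart.

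By at least 2-fold on the fitted scale, 12 of the 38 tested members rose, beside 6.48% of all genes, and 3 fell, beside 11.3%. The count of falls depends on the pseudocount: with 0.1 in place of 1, 12 rose and 7 fell by that much, beside 7.30% and 15.8% of all genes. After rescaling the same bound was passed by 12 and 2 members, beside 8.94% and 5.78% of all genes. Of the 12, 4 (Trim30d, Trim30b, Trim34a and Trim5) reached 1 TPM only in M1 and so entered the test through the group where they are high. Trim2 and Trim7 entered through M0 alone. By comparison, among 59 tested genes with numbered RING finger (Rnf) symbols, another large group of ubiquitin ligases, 15 were higher and 37 lower, and 5 rose by at least 2-fold. These counts describe the lists, and the difference between the families was not tested.

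**Figure D1:**
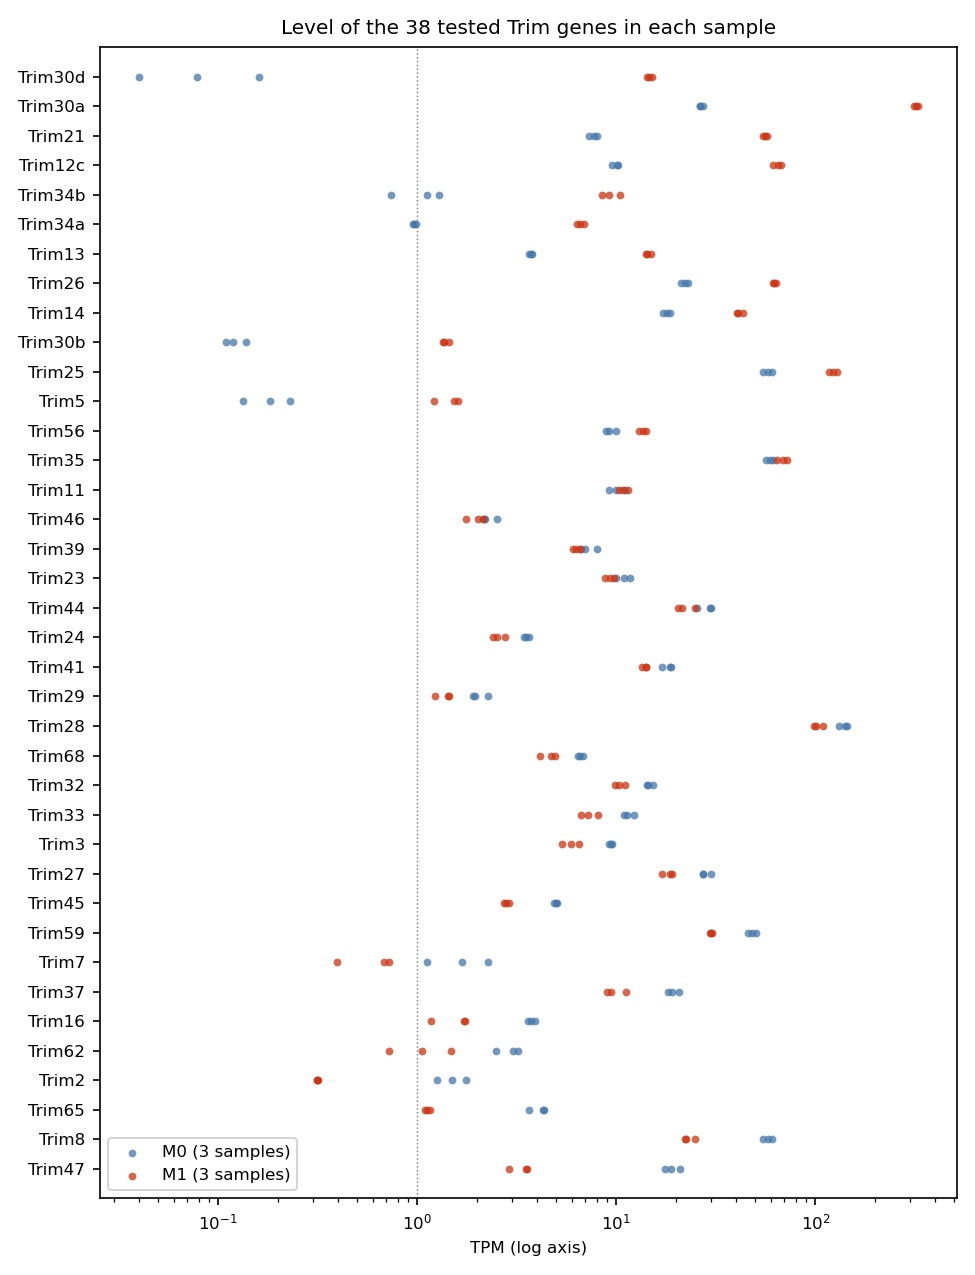
TPM of the 38 tested Trim genes on a log axis, with 1 point per sample, M0 in blue and M1 in red, ordered by fitted change; the dotted line marks 1 TPM. The M1 points of Trim30a lie between 315 and 328 TPM, far to the right of its M0 points at 26.3 to 27.3 TPM, whereas Trim47, at the bottom, has M0 points at 17.6 to 20.8 TPM and M1 points at 2.89 to 3.56 TPM.

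The largest 2 fitted increases came from a gene cluster on chromosome 7. It spans 104218795 to 104535361 (mm10) and holds 10 members, the mouse relatives of the human TRIM5, TRIM6, TRIM22 and TRIM34 locus, of whose products TRIM5 is known for recognising retroviral capsids. Its 7 tested members rose, but 4 of them were tested only because they reached 1 TPM in M1, so the filter fixed their direction. The 3 that passed in both groups were Trim12c, Trim30a and Trim34b. Trim30a (NM_009099, 104409026 to 104465193, minus strand), known as a feedback inhibitor of Toll-like receptor signalling that acts on the TAB2 and TAB3 adaptors, had 26.4, 27.3 and 26.3 TPM in the M0 samples and 328, 315 and 319 TPM in the M1 samples. Every M1 sample was more than 11 times above every M0 sample. Its mean rose 12.02-fold (log2 change 3.54, SE 0.04, limma adjusted p = 3.6e-14; 3.90 after rescaling). It was the most abundant Trim transcript of M1 cells.

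Trim30d (NM_001167828, 104470014 to 104507849), a related copy of Trim30a, had 0.078, 0.04 and 0.161 TPM in M0 and 14.6, 14.3 and 15.1 TPM in M1. The M0 level rested on 13 reads over 3 libraries and the M1 level on 2364, so the transcript went from barely detected to moderately abundant. On the log2(TPM + 1) scale, which understates changes of genes near 0, it changed by 3.84 (SE 0.08, limma adjusted p = 2.3e-12). Its log2 fold change in the authors' deposited table was 7.70. Trim30b rose too, from 0.122 ± 0.0147 to 1.39 ± 0.051 TPM, on 15 and 189 reads. The pseudogene Trim30e-ps1 stayed under the filter with 1 read in M0 and 21 in M1, with a log2 fold change of 4.50 (adjusted p = 0.0040) in the authors' deposited table.

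Trim12c (NM_175677, 104338754 to 104353349, minus strand), 1 of the mouse counterparts of human TRIM5, had 10.1, 10.2 and 9.52 TPM in M0 and 67.5, 65.1 and 61.3 TPM in M1. The groups lay far apart and the mean rose 6.49-fold (log2 change 2.58, SE 0.06, limma adjusted p = 5.4e-12). Trim5 itself (NM_001310602, 104264448 to 104288106) was scarce, at 0.182 ± 0.0485 TPM in M0 against 1.45 ± 0.207 TPM in M1, on 20 and 177 reads, and was called higher (log2 change 1.05, SE 0.09). Its neighbour Trim12a had no read in M0 and 3 in M1, too few to compare. Trim34a had 0.989, 0.95 and 0.969 TPM in M0 and 6.91, 6.58 and 6.36 TPM in M1, a 6.83-fold rise. Trim34b had 1.12, 0.735 and 1.28 TPM in M0 and 10.4, 9.17 and 8.44 TPM in M1, an 8.92-fold rise. Trim6, at the edge of the cluster, had 7 reads in M0 and none in M1 and was not tested, and its adjusted p in the authors' deposited table was 0.148.

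Reads can be shared between such copies. Of all 32-base windows in the GENCODE M21 transcripts of Trim34b, 68.4% also occurred in Trim34a, and 48.3% of those of Trim34a occurred in Trim34b. Trim12c and Trim5 shared 37.8% and 36.9% of their windows, whereas Trim30a and Trim30d shared 8.24% and 8.87%. The split of reads within the Trim34 pair and between Trim5 and Trim12c is therefore uncertain, and that within the Trim30 group less so.

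**Figure D2:**
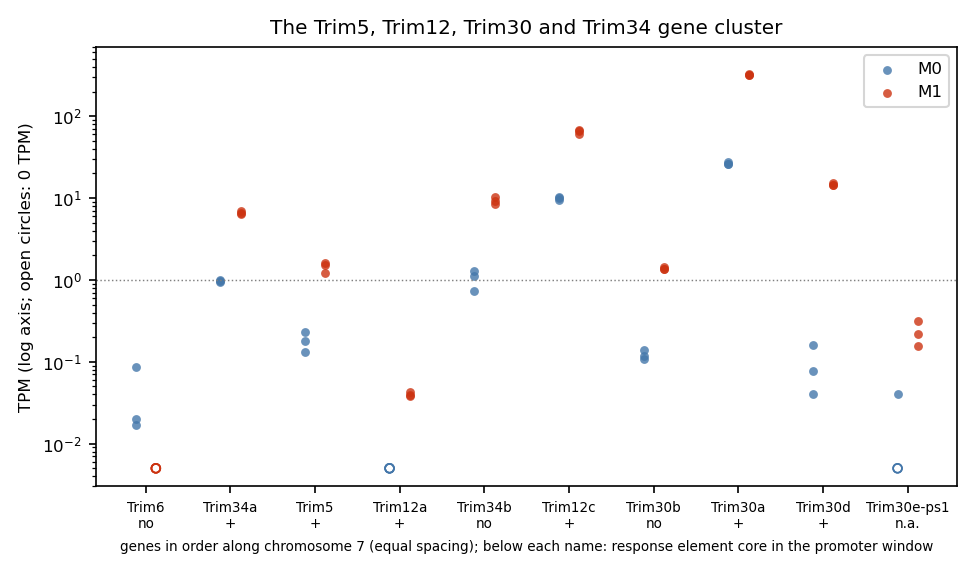
TPM (log axis) of the 10 Trim genes of the chromosome 7 cluster in each M0 (blue) and M1 (red) sample, in their order along the chromosome at equal spacing; open circles stand for 0 TPM and the mark under each name says whether the response element core was found in its promoter window (n.a., no window used). The 7 tested genes all lie higher in M1, and of these Trim34b and Trim30b are without the core.

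Members outside that cluster also rose. Trim21 (NM_001082552, chromosome 7, 102557920 to 102565482), the cytosolic antibody receptor that marks antibody-coated virus for destruction, had 7.28, 8.03 and 7.71 TPM in M0 and 57.0, 55.6 and 54.3 TPM in M1. No M0 sample came near the M1 range, and the mean rose 7.25-fold (log2 change 2.71, SE 0.06, limma adjusted p = 2.9e-12). Its neighbour Trim68 moved the opposite way, from 6.60 ± 0.224 to 4.58 ± 0.403 TPM. That fall was called on TPM (log2 change -0.45) and not after rescaling (-0.14, limma adjusted p = 0.10).

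Trim25, the ligase known for ubiquitinating the RNA sensor RIG-I, had 54.8, 60.3 and 57.6 TPM in M0 and 117, 122 and 129 TPM in M1. It was already abundant at rest and its mean rose 2.14-fold (log2 change 1.08, SE 0.05, limma adjusted p = 5.2e-09; 1.44 after rescaling). Trim26, which lies in the major histocompatibility complex on chromosome 17, had 22.0, 22.8 and 21.2 TPM in M0 and 61.4, 63.4 and 62.2 TPM in M1. This 2.83-fold rise was the only testable change among the 5 members within 36837146 to 36910217. The others, Trim10, Trim15, Trim31 and Trim40, stayed under 0.3 TPM in every library. Trim39 (36258873 to 36271433), on the same chromosome beyond the gap of 500000 bases that bounds such groups, was tested and called on neither scale. Trim13, a ligase of the endoplasmic reticulum membrane, rose 3.89-fold from 3.72 ± 0.0737 to 14.5 ± 0.412 TPM. In GENCODE, 27.8% of the 32-base windows of Trim13 also occur in Gm9359, which was not analysed here.

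Trim14, a member without a RING that acts as an adaptor in antiviral signalling, rose 2.32-fold from 17.9 ± 0.712 to 41.6 ± 1.47 TPM. Its transcripts share 30.3% of their 32-base windows with Nans on the opposite strand, and no source used here says whether counting used strand. Nans itself fell from 70.4 ± 2.05 to 36.6 ± 0.92 TPM. Trim56, which promotes STING and TLR3 signalling, rose less, from 9.35 ± 0.557 to 13.6 ± 0.561 TPM (log2 change 0.50, limma adjusted p = 2.4e-05; 0.84 after rescaling). Trim35 rose least of the 14, from 59.0 ± 2.46 to 68.4 ± 3.67 TPM (log2 change 0.21, limma adjusted p = 0.0037). Trim11 had 10.1 ± 0.917 and 10.9 ± 0.55 TPM, with overlapping groups, and was called higher only after rescaling (log2 change 0.44).

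**Figure D3:**
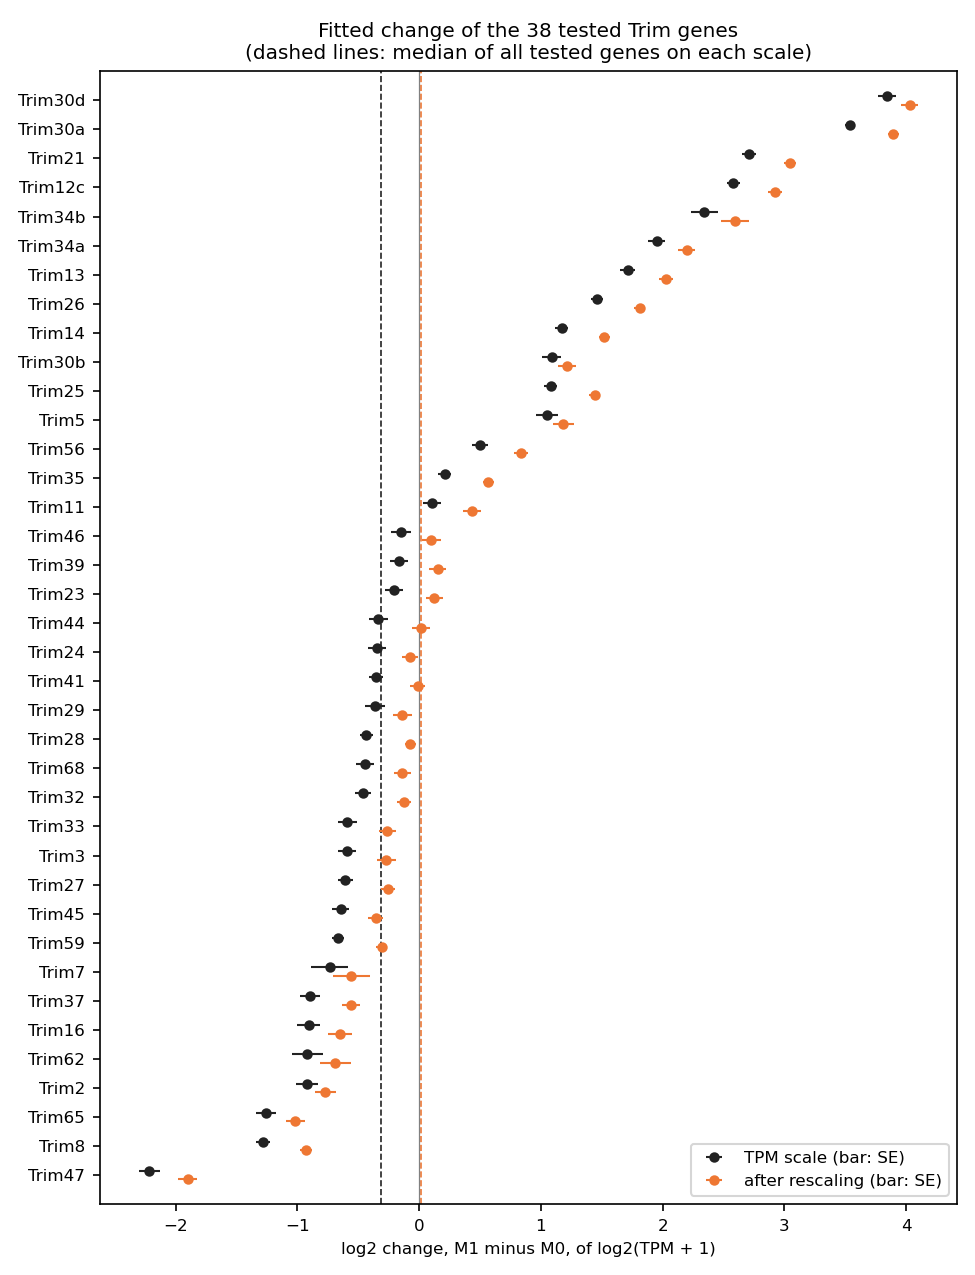
Fitted log2 change (M1 minus M0) of log2(TPM + 1) for the 38 tested Trim genes, with standard errors, on the TPM scale (black) and after rescaling (orange); dashed lines mark the median of all tested genes, -0.31 and 0.02. Trim30d, at 3.84, and Trim47, at -2.22, form the ends of the range, and the genes near the black dashed line are those whose call is lost or whose sign turns after rescaling.

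Among the decreases, 3 reached 2-fold on the fitted scale, and with a pseudocount of 0.1 Trim2, Trim7, Trim16 and Trim62 did so too. Trim47 (chromosome 11) had 17.6, 18.9 and 20.8 TPM in M0 and 2.89, 3.53 and 3.56 TPM in M1. The mean fell 5.74-fold (log2 change -2.22, SE 0.09, limma adjusted p = 7.3e-10; -1.90 after rescaling). Trim65, known for ubiquitinating the RNA sensor MDA5, is its neighbour on chromosome 11 (both within 116105750 to 116131128) and fell 3.65-fold, from 4.09 ± 0.395 to 1.12 ± 0.0336 TPM. Trim65 stayed lower after rescaling (log2 change -1.02). The transcripts of the pair share 7.24% (Trim47) and 3.38% (Trim65) of their 32-base windows. Trim8, a regulator of cytokine and TNF signalling, had 54.7, 57.7 and 60.5 TPM in M0 and 22.5, 22.0 and 24.8 TPM in M1, a 2.49-fold fall (log2 change -1.28, SE 0.06, limma adjusted p = 3.7e-09). After rescaling its change was -0.93.

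Below 2-fold on the fitted scale, Trim2, Trim62, Trim16, Trim37, Trim7, Trim59, Trim45, Trim27, Trim3 and Trim33 fell on both scales, with log2 changes from -0.92 to -0.59 on TPM and from -0.77 to -0.26 after rescaling. Trim37, a centrosomal ligase, fell from 19.3 ± 1.22 to 9.90 ± 1.18 TPM. Trim59, a membrane-anchored member, fell 1.60-fold from 48.2 ± 2.02 TPM (log2 change -0.66). Trim2, best known from neurons, stood at 1.51 ± 0.247 TPM in M0, against 0.316 ± 0.0023 TPM in M1, so its ratio of means, 4.76, exceeds what the fitted change conveys. The same holds for Trim7, Trim16 and Trim62, with ratios of 2.82, 2.43 and 2.68.

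Trim28, the KAP1 corepressor that silences retroelements, was the most abundant Trim transcript of M0 cells. It had 132, 145 and 140 TPM in M0 and 98.7, 100.3 and 109 TPM in M1. This fall was called on the TPM scale (log2 change -0.43, limma adjusted p = 1.5e-05), but it is close to the shift of the median gene, and after rescaling the change of -0.07 was not called (limma adjusted p = 0.19). Trim24, Trim29, Trim32, Trim41 and Trim68 likewise lost their call after rescaling with their sign kept. The sign turned for Trim23 (-0.21 and 0.13), Trim39 (-0.17 and 0.15), Trim44 (-0.33 and 0.02) and Trim46 (-0.15 and 0.10), none of which was called after rescaling. Trim39 and Trim46 were not called on TPM either, at 7.20 ± 0.689 and 6.30 ± 0.232 TPM for Trim39 and 2.29 ± 0.186 and 1.98 ± 0.197 TPM for Trim46.

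By what is generally known of the family, and with no domain checked in sequence, the members were also sorted by C-terminal domain. Those without a RING (Trim14, Trim16, Trim29 and Trim44) were kept as a class of their own whatever that domain. As background, the shares over all genes were 18.7% higher and 61.5% lower on TPM, and 38.1% and 35.4% after rescaling. The largest class is the one assigned a PRY-SPRY domain, which recognises the target. Of its 35 members 20 were tested, and 11 rose while 7 fell on TPM (median log2 change 0.63), against 12 and 5 after rescaling. Of the 11, Trim5, Trim30b, Trim30d and Trim34a reached 1 TPM only in M1. The filter thus fixed their direction, and they enter both the count and the median. Trim7, among the 7, and Trim2, of another class, entered through M0 alone. In all other classes together, 18 of 33 members were tested. Of these, 3 rose (Trim13, Trim14 and Trim56) while 14 fell (median -0.45), against 3 and 8 after rescaling. The 4 without a RING are among them, of which 1 rose and 3 fell on TPM, against 1 and 1 after rescaling. The PRY-SPRY class and the rest therefore do not part by C-terminal domain alone. The transcriptional cofactors with a PHD finger and bromodomain, Trim24, Trim28 and Trim33, all fell on TPM, and only Trim33 did after rescaling. The NHL-repeat members Trim2, Trim3 and Trim32 fell on TPM, and Trim2 and Trim3 after rescaling. The PRY-SPRY class holds 9 of the 10 genes of the chromosome 7 cluster, so class and position are not separate observations. Outside that cluster 13 of its members were tested, and 4 rose while 7 fell on TPM, against 5 and 5 after rescaling.

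Of 12 members called higher that had a promoter window, 7 held the core (Trim5, Trim12c, Trim21, Trim26, Trim30a, Trim30d and Trim34a), and none of 15 called lower did. Of the 7, Trim5, Trim30d and Trim34a had passed the filter through M1 alone, and among the 8 that passed in both groups 4 held the core. As copies share their matches, these counts are a description and not independent cases. The eighth holder was Trim12a, which was not tested. Among all genes of the table, 8.56% of those called higher and 2.13% of those called lower held it. For rises of at least 2-fold the figures were 7 of 11 members and 16.0% of 557 genes. Trim13, Trim25, Trim30b, Trim34b and Trim56 were called higher with no core in their windows. The gamma-activated site was in none of the 12 members called higher, beside 9.28% of all genes called higher. It was in 1 of the 15 called lower, beside 5.84% of all genes called lower, and its other holders were not called or not tested.

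The make-up of the family's transcripts also shifted. The summed level of the 68 members was 1.62 times as high in M1 (1091 ± 15.1 TPM) as in M0 (673 ± 24.2 TPM). Without Trim30a, left out after its value was seen, the sums were 646 ± 23.9 and 770.5 ± 17.5 TPM. These sums are on the TPM scale, depend on it, and were not taken after rescaling. Shares within the family do not depend on the scaling. Trim30a went from 3.96% ± 0.114 of the family's TPM, rank 8, to 29.4% ± 0.798, rank 1. Trim28 went from 20.6% ± 0.285 to 9.40% ± 0.369, and Trim8 from rank 3 to rank 10. Trim35 and Trim25 held ranks 2 and 4 in M0 and ranks 4 and 2 in M1.

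**Figure D4:**
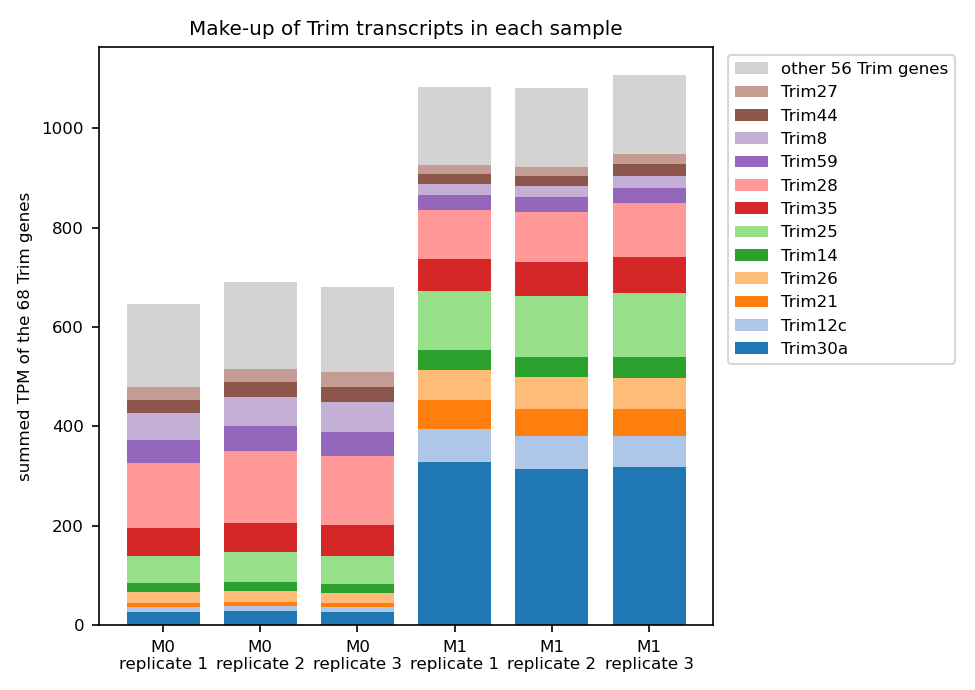
Summed TPM of the 68 Trim genes in each of the 6 samples, stacked by gene, with the genes that are not drawn singly in grey. The M0 sums lie between 645 and 692 TPM, the M1 sums between 1081 and 1108 TPM, and the lowest block, Trim30a, accounts for most of the gap.

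The 30 members that were not tested never passed 0.678 TPM in any library, and 8 of them (Trim31, Trim40, Trim42, Trim52, Trim54, Trim60, Trim61 and Trim63) had no read in all 6. The nearest to the filter were Trim36 and Trim66, and the tested members nearest to it were Trim7 and Trim5. Trim66, a bromodomain relative of Trim28, stood at 0.505 ± 0.0634 TPM in M0, against 0.0813 ± 0.0379 TPM in M1 (203 and 36 reads), with a log2 fold change of -2.29 (adjusted p = 2.2e-09) in the authors' deposited table. The Trim43 group, related copies known from early embryos, stayed at or under 0.265 TPM. The authors' deposited table called Trim43b higher (log2 fold change 1.97, adjusted p = 0.047, on 7 and 24 reads). In GENCODE, Trim43b and Trim43a shared 48.0% and 53.9% of their windows. That table has rows with a fold change for 59 members, of which 16 were called higher and 14 lower, beside 22.9% and 20.7% of its genes.

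Of 6 family members that carry other names, 2 were tested and both rose. Pml, known as TRIM19 and the organiser of PML nuclear bodies, rose from 14.2 ± 0.533 to 45.5 ± 2.35 TPM (log2 change 1.61, limma adjusted p = 3.5e-10). Mid1, known as TRIM18 and a microtubule-bound ligase, rose from 10.0 ± 0.752 to 32.3 ± 0.465 TPM (log2 change 1.60, limma adjusted p = 8.3e-10). Mid2, Mefv (TRIM20, or pyrin), Bspry and Cmya5 were too low to be tested. Their highest group mean was that of Mefv in M1, 0.376 ± 0.0333 TPM.

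Of 27 genes of RIG-I-like receptor and STING signalling, 26 were tested, and 12 rose (46.2%) while 7 fell (26.9%), against 19 and 4 after rescaling. Over all genes the shares were 18.7% and 61.5% on TPM, and 38.1% and 35.4% after rescaling. The 3 with the smallest p among those that rose were Irf7, a factor that drives interferon genes (13.0 ± 1.11 to 275 ± 4.99 TPM), Ifih1, which encodes MDA5 (6.97 ± 0.393 to 85.4 ± 7.33 TPM), and Dhx58 (18.4 ± 0.32 to 90.3 ± 0.903 TPM). Among those that fell they were the adaptor Mavs (25.4 ± 0.458 to 11.5 ± 0.537 TPM) and the inhibitory Nlrc3 and Nlrx1 (5.12 ± 0.139 to 1.67 ± 0.116 TPM and 7.23 ± 0.183 to 2.59 ± 0.239 TPM). A further 4 genes were named after their values were seen, because their proteins are known partners of members. Ddx58, which encodes RIG-I, the target of Trim25, rose from 9.08 ± 0.323 to 56.6 ± 3.96 TPM, and Zc3hav1, which encodes the Trim25-dependent antiviral protein ZAP, from 44.8 ± 4.96 to 84.2 ± 7.29 TPM. Tab2 and Tab3, whose products Trim30a acts on, were not called on TPM. Their M0 and M1 levels were 42.7 ± 2.25 and 41.5 ± 4.72 TPM for Tab2 and 3.87 ± 0.518 and 4.23 ± 0.477 TPM for Tab3. After rescaling both were called higher (log2 changes 0.31 and 0.40).

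Of 32 E2 enzymes, the class that RING ligases draw on, 31 were tested. On TPM 8 rose (25.8%) and 16 fell (51.6%), beside 18.7% and 61.5% of all genes. After rescaling 19 were higher and 5 lower, beside 38.1% and 35.4%. Ube2l6, the E2 of ISG15 conjugation, rose 5.51-fold from 22.6 ± 0.61 to 125 ± 4.73 TPM. Ube2e2 and Ube2f followed, at 8.39 ± 0.406 and 21.6 ± 1.62 TPM and at 47.0 ± 1.39 and 81.4 ± 1.23 TPM in M0 and M1. Ube2t, which serves DNA crosslink repair, fell most clearly, from 33.0 ± 0.607 TPM (log2 change -1.39). Ube2g1 fell from 22.0 ± 0.849 to 13.7 ± 0.152 TPM and Ube2r2 from 19.8 ± 0.48 to 13.0 ± 0.285 TPM.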

How the data were processed

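Poly(A) RNA was sequenced from 3 M0 and 3 M1 samples. Tools listed in the submitters' processing notes are STAR 2.7.5a, HOMER 4.11.1, bcl2fastq and DESeq2, and the build is mm10; their roles and order are not stated. The authors deposited TPM per gene, per the file headers; its columns sum to between 551257 and 572349. A second table holds, per the file headers, log2 values per sample (transform not stated), and the authors' own comparison (log2 fold change, adjusted and raw p-value). The log2 values per sample were not used.

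limma 3.58.1 (R 4.3.3; trend and robust empirical Bayes) was run on log2(TPM + 1), M1 against M0, keeping genes that reached 1 TPM in 3 or more samples. The model held group alone and left 4 residual degrees of freedom. The Benjamini-Hochberg adjustment covered all 11297 genes, with calls under 0.05. "Rose" and "fell" refer to calls on the TPM scale. Folds are ratios of mean TPM. The rescaled values are TPM divided by median-of-ratios factors, on the same genes. An exact permutation test of 3 against 3 cannot go below 0.10 and was not used. The fit was tested on simulated data in which few genes changed, as many up as down. That simulation does not bear on the shift of the median gene seen here.

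TPM times length was a whole multiple of 1 value per library, within 0.1, for 99.8% to 99.99% of values above 0, which gave the reads behind a value. For a transcript of 2000 bases, 1 TPM stood for at least 26.5 reads. Read numbers cover counting error only. Promoter windows are RefSeq's. A comparison of proteins had been planned; 32-base windows of GENCODE M21 transcripts were compared instead. The members, domain classes and lists were chosen with earlier results of these data known. Members named were those called with a change of at least 1 log2 unit, the most abundant, those changed by rescaling, the lettered copies, and Trim21, Trim25, Trim28 and Trim56; from other lists, up to 3 in each direction with the smallest p. Other members are named in groups, after their values were seen. The alternatives tried were the rescaling, another pseudocount, 2 other filters, plain empirical Bayes, a replicate block and leaving out each sample.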

Additional observations from a re-analysis of the deposited data

How the results depend on the processing

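Under a pseudocount of 0.1, all 38 tested members kept their direction and their side of the threshold. Dropping the filter on low values, plain empirical Bayes and the replicate block leave each fitted change as it was, so only the calls could move. In these settings too, all 38 stayed on their side of the threshold. The replicate numbers did not pair the samples (correlations of deviations 0.07, -0.08 and 0.04 for numbers 1 to 3). With the block 14 members were higher and 21 lower, as without it, beside 19.0% and 62.1% of all genes. A filter of 5 TPM left 27 members, of which 12 were higher and 13 lower, because fewer were tested. Of all 9107 genes left by that filter, 20.2% were higher and 62.6% lower. Without a filter, 17 of 60 members were higher and 23 lower, beside 12.4% and 38.9% of all genes. In that setting, 3 and 1 of the 6 TRIM genes with other names were called higher and lower. Leaving out 1 sample gave 14 higher and 20 to 21 lower members, beside 17.6% to 18.4% and 58.5% to 61.9% of all genes. Trim23 lost its call without M0 replicate 2, M0 replicate 3 or M1 replicate 3 (log2 change -0.15, -0.20 and -0.17; limma adjusted p = 0.097, 0.0595 and 0.057), and Trim39 was called lower without M0 replicate 3 (-0.21; limma adjusted p = 0.042).

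The rescaling moved the most results. It gave 13 members lower, with the signs of Trim23 (0.13), Trim39 (0.15), Trim44 (0.017) and Trim46 (0.10) turned, 8 calls lost (Trim23 and Trim44 among them) and that of Trim11 gained. The counts higher and lower became 4305 and 4002 for all genes, 19 and 4 for RIG-I-like receptor and STING signalling, 19 and 5 for E2 enzymes, and 26 and 21 for numbered RING finger genes. Which scale is nearer to RNA per cell was not tested.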
